A study of Homo sapiens with 8 samples.

Results

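The 10 genes described here are immediate early genes outside the AP-1 family, a chosen part of that class, measured in BJ cells (a human fibroblast line from skin) in which the level of PURPL, a long noncoding RNA, had been raised or lowered: EGR1, EGR2, EGR3, NR4A1, NR4A2, NR4A3, IER2, IER3, IER5 and ARC. They were taken by name from 59370 genes, each name stood on a single row of each table, and ARC was chosen by its measured FPKM, which was lower after knockdown. RNA sequencing gave 8 libraries in 4 groups of 2. Cells of the group OE-PURPL overexpressed PURPL and had the group PCDNA as control, and cells of the group ASO-PURPL had PURPL knocked down with an antisense oligonucleotide and had the group ASO-NC as control. All libraries came from the same cell line in serum-containing medium, the sources used here give no times after treatment, and nothing says whether replicates were separate cultures, so the spread behind each p-value may be purely technical. Levels are in FPKM, fragments scaled by transcript length and library size, and the number of reads behind them is unknown. In bulk RNA, fewer cells that express a gene and less RNA per cell cannot be told apart.

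Immediate early genes are transcribed within minutes of serum, growth factors or stress, without new protein synthesis. ERK kinases phosphorylate ternary complex factors that sit with serum response factor (SRF) on CArG boxes, and other kinases activate CREB on cyclic AMP response elements. EGR1, EGR2 and EGR3 are zinc finger transcription factors that bind GC-rich sites. NR4A1, NR4A2 and NR4A3 are orphan nuclear receptors whose activity depends mainly on how much of them is made. IER2 is a nuclear regulator, IER3 modulates cell survival and NF-kB signalling, and IER5 promotes the activity of HSF1, the heat shock factor. ARC encodes a cytoskeleton-associated protein that is best known from neurons, where it promotes endocytosis of glutamate receptors. Fibroblasts brought from serum starvation back into serum are the classical setting in which EGR1 and its relatives were studied.

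The promoters of EGR1, EGR2 and IER5 are shown because they hold different numbers of these elements. No relation between the elements and the changes below was tested. They are the 250 bases before the RefSeq start on GRCh38.p14, written 5′ to 3′ on the strand of the gene, with CArG boxes and the half-site TGACG of the cyclic AMP response element (CGTCA on the other strand) in capitals. The windows are EGR1 at chr5:138465229-138465478 on the plus strand, EGR2 at chr10:62816367-62816616 on the minus strand before the most downstream of its 3 listed starts, and IER5 at chr1:181088450-181088699 on the plus strand. None of the 3 windows overlaps an exon of GENCODE 29.
EGR1: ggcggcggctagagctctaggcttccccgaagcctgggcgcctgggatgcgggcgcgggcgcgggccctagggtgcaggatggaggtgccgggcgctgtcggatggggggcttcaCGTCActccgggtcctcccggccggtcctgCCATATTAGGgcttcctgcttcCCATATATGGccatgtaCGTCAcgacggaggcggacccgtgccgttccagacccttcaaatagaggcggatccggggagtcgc
EGR2: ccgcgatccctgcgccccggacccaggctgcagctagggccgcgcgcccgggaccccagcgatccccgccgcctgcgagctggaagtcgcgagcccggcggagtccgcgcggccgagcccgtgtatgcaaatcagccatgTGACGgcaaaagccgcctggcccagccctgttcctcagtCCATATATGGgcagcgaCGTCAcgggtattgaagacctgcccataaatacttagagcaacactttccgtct
IER5: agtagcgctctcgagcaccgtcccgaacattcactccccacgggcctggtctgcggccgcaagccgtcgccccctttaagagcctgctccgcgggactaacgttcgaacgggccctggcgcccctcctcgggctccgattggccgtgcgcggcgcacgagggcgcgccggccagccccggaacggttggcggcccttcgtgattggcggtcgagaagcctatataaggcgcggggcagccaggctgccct
The EGR1 window held 2 CArG boxes, beginning 105 and 83 bases before the start, and 2 half-sites. The EGR2 window held 1 CArG box and 2 half-sites, and the IER5 window held neither. RefSeq windows were found for 6 of the 10 genes, with 9 starts in all, and both strands were searched. NR4A3 had 4 half-sites, IER2 had 1, and the 2 windows of NR4A1 and the other 2 of EGR2 had none of either kind. Over all 35116 windows, 1.16% held a CArG box and 0.0313% held 2 or more, while 21.2% held TGACG and 4.76% held it at least 2 times. The whole element TGACGTCA (1.65% of windows), the EGR sites GCGTGGGCG (0.72%) and GCGGGGGCG (4.72%), the AP-1 site TGANTCA (6.57%), the NR4A site AAAGGTCA (1.05%) and TATAAA (10.7%) were in none of the 9 windows. TGACG lies inside TGACGTCA, so those counts overlap. EGR3, NR4A2, IER3 and ARC have no window shown.

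The 10 genes spanned a wide range of levels, and the order was led by the IER family. In the PCDNA libraries IER3 stood at 252 and 223 FPKM, IER2 at 155 and 146, IER5 at 54 and 50.6 and EGR1 at 48.3 and 36.7. These 4 genes were the highest in all 4 groups. NR4A1 followed at 7.6 and 7.03 FPKM, EGR2 at 4.42 and 4.56, ARC at 2.85 and 2.31 and EGR3 at 2.69 and 1.84. NR4A2 (0.813 and 0.755) and NR4A3 (0.602 and 0.591) were the lowest in all 4 groups and stayed under the mean of 1 FPKM that a gene needed to be tested, so 8 of the 10 genes were tested. EGR1 made up 77.5% to 88.4% of the summed FPKM of the 3 EGR genes across libraries, and NR4A1 made up 83.9% to 92.0% of that of the 3 NR4A genes. Neighbours in the order whose replicate values overlapped were ARC and EGR3 in PCDNA, and EGR2 with NR4A1 and EGR3 with NR4A2 in ASO-PURPL. EGR1 stood below IER5 in PCDNA and OE-PURPL and above it in ASO-NC and ASO-PURPL.

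**Figure D1:**
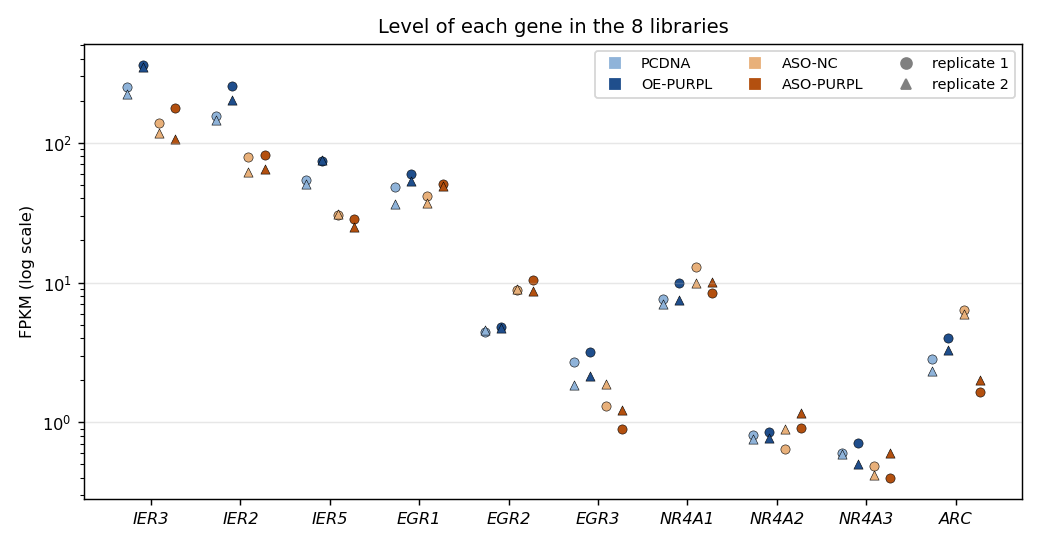
FPKM of each gene (log axis) in the 8 libraries, by group (colour) and replicate (circle or triangle). IER3, IER2 and IER5 stand higher in the PCDNA and OE-PURPL libraries than in the ASO libraries, EGR2 stands lower, and ARC is highest in the 2 ASO-NC libraries (6.32 and 5.93 FPKM).

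After overexpression of PURPL the 3 IER genes and EGR1 stood higher than their controls in both pairs, while EGR2, NR4A2 and NR4A3 were close to theirs. IER2 was at 255 and 202 FPKM in OE-PURPL against 155 and 146 FPKM in PCDNA. Both OE-PURPL values lay above both PCDNA values. How many of all tested genes had groups without overlap was not computed, so nothing is read from overlap of groups here or below. Overlap also sets replicate 1 values against replicate 2 values, which come from separately deposited tables. On the scale of log2(FPKM + 1), on which changes of low genes are understated, IER2 had ratios of 0.71 and 0.47 in the pairs. The estimate was 0.59 (SE 0.10, adjusted p = 0.324, limma). IER3 was at 362 and 346 FPKM against 252 and 223 FPKM, again with no overlap, and had an estimate of 0.57 (SE 0.13, adjusted p = 0.324, limma). IER5, the HSF1 regulator, was at 73.9 and 75.5 FPKM against 54 and 50.6 FPKM, which is 36.9% and 49.2% higher. Its estimate was 0.51 (SE 0.10, adjusted p = 0.324, limma). The groups did not overlap.

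EGR1 reached 59.3 and 52.9 FPKM in OE-PURPL against 48.3 and 36.7 FPKM, with an estimate of 0.40 (SE 0.10, adjusted p = 0.324, limma). EGR2, a regulator of myelination in Schwann cells, stood at 4.79 and 4.76 FPKM against 4.42 and 4.56 FPKM (estimate 0.07, SE 0.13). For both genes each OE-PURPL value exceeded each PCDNA value, by little in the case of EGR2. EGR3 stood at 3.21 and 2.16 FPKM against 2.69 and 1.84 FPKM, so that its groups overlapped although each pair had the same sign (0.19 and 0.16). NR4A1 was at 9.91 and 7.47 FPKM against 7.6 and 7.03 FPKM, and its ratios of 0.34 and 0.08 came mainly from replicate 1. NR4A2 had ratios of 0.03 and 0.01 and NR4A3 of 0.10 and -0.08. ARC stood at 4 and 3.27 FPKM against 2.85 and 2.31 FPKM, 40.2% and 41.7% higher, without overlap. The ARC ratios were nearly equal in the pairs (0.38 and 0.37), and the estimate was 0.37 (SE 0.16, adjusted p = 0.379, limma).

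None of the 8 tested members passed the threshold, an adjusted p under 0.05 over all 14977 tested genes, where 0.0267% of genes passed. All 8 were higher than their control in both overexpression pairs, against 32.6% of tested genes, and their median log2 ratio was 0.39 against 0.00 for all tested genes. In this comparison the ratio moved with base composition and with transcript length. Across genes its Spearman correlation in the pairs was 0.46 and 0.37 with GC content and -0.34 and -0.36 with length. The median log2 ratio ran from -0.16 for genes with a transcript GC content up to 40% to 0.19 for those above 60%, and the share of genes higher in both pairs ran from 10.3% to 64% over the same classes. Transcripts of the tested members had GC contents of 49.8% (IER5) to 66.8% (ARC), against a median of 48.5% for tested genes. With the trend on length and GC content removed, 7 of the 8 were still higher in both pairs, against 29.1% of genes. The ratios were then 0.54 and 0.31 for IER2, 0.31 and 0.37 for IER3, 0.50 and 0.58 for IER5, 0.21 and 0.41 for EGR1, and 0.16 and 0.23 for ARC. EGR2 had 0.08 and -0.02. IER5, with a GC content near the median and a transcript of 4188 bases against a median of 3484, kept its ratio. The parts of length and GC content in this removal were not separated. Mean ratios before and after removal were 0.57 and 0.34 for IER3, 0.59 and 0.43 for IER2, 0.40 and 0.31 for EGR1, and 0.37 and 0.20 for ARC. Those of NR4A1 and EGR2 were smaller too.

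**Figure D2:**
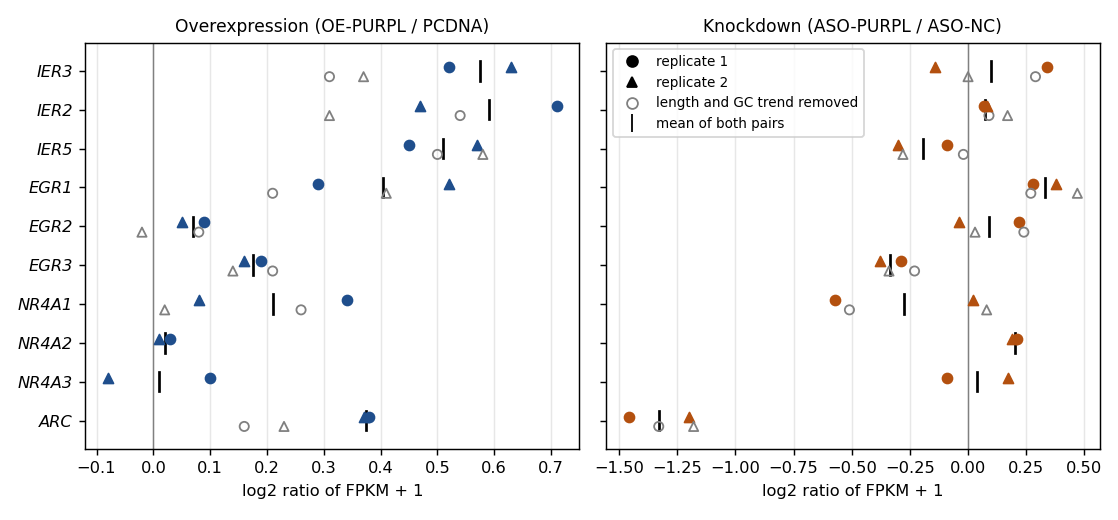
Log2 ratio of FPKM + 1 in each pair of libraries for overexpression (left) and knockdown (right), with different horizontal scales. Filled symbols are replicates as deposited, open grey symbols the same after removal of the length and GC trend for the 8 tested genes, and black bars the mean of both pairs. IER2, IER3, IER5 and EGR1 lie right of 0 on the left, and ARC stands at -1.46 and -1.20 on the right.

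**Figure D3:**
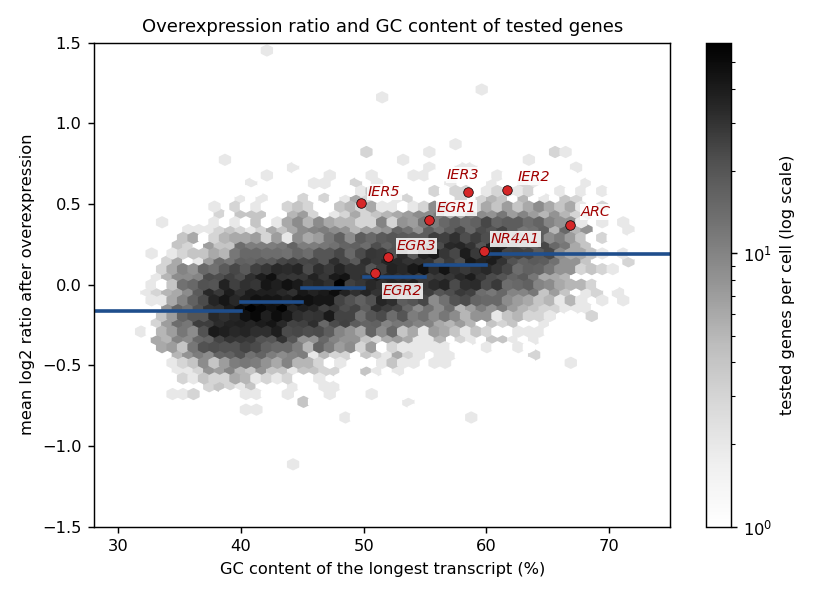
Mean log2 ratio after overexpression against GC content of the longest transcript for 13339 tested genes with an annotation (grey cells, darker for more genes), with 43 genes outside the axes. Blue lines give the median in 6 classes of GC content, from -0.16 to 0.19, and red points are the 8 tested members, of which IER5, IER3, IER2 and EGR1 lie farthest above the line of their class.

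After knockdown of PURPL the members did not share a direction, and ARC stood apart from the rest. ARC was at 1.65 and 2.02 FPKM in ASO-PURPL against 6.32 and 5.93 FPKM in ASO-NC, which is 73.9% and 66% lower. Both ASO-PURPL values lay far below both controls. The log2 ratios were -1.46 and -1.20, and ARC had the 64th lowest mean ratio among the 14977 tested genes. It was chosen for this difference, so the values are a description and no test is given. A log2 ratio of -1 or less in both pairs was seen for 0.227% of tested genes. ARC was chosen by these same values, so nothing is read from its rank or from that share. Because ARC is a gene of low level, its mean ratio of -1.33 depended on the pseudocount. It was -1.69 with a pseudocount of 0.1 FPKM and -0.70 with 5 FPKM. With the length and GC trend removed the pairs stood at -1.33 and -1.18. PURPL itself was 61% and 56.4% lower in the same pairs. Summed levels of 6 neuronal markers were 4.89 to 5.11 FPKM in ASO-NC and 4.04 to 5.11 FPKM in ASO-PURPL. Over all 8 libraries SYT1 (0.725 to 6.41 FPKM), GAD1 (1.04 to 2.27) and SNAP25 (up to 1.34) reached 1 FPKM in at least 1 library, and RBFOX3, SLC17A7 and CAMK2A in none.

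EGR1 was higher after knockdown too, at 50.5 and 48.7 FPKM against 41.5 and 37.2 FPKM, with no overlap and an estimate of 0.33 (SE 0.10, adjusted p = 0.587, limma). EGR3 went the other way, at 0.89 and 1.22 FPKM against 1.31 and 1.88 FPKM (estimate -0.33, SE 0.17, adjusted p = 0.622, limma). IER5 was at 28.7 and 24.9 FPKM against 30.6 and 30.9 FPKM (estimate -0.19, SE 0.10, adjusted p = 0.622, limma). EGR3 and IER5 were lower than their control in both pairs and without overlap of the groups. IER2 had ratios of 0.07 and 0.08 and NR4A2 of 0.21 and 0.19, while EGR2 (0.22 and -0.04), IER3 (0.34 and -0.14), NR4A1 (-0.57 and 0.02) and NR4A3 (-0.09 and 0.17) changed sign between the pairs. The knockdown ratios correlated with transcript length at -0.17 and 0.20 in the pairs (Spearman). With the length and GC trend removed EGR2 had 0.24 and 0.03, IER3 0.29 and -0.00 and NR4A1 -0.51 and 0.08. The counts below are without that removal. Among the 8 tested members 2 were higher in both pairs (19.3% of tested genes were) and 3 lower (33.4%), with a median of -0.06 against -0.04 for all. ARC, chosen for its fall, is among the 3, so nothing is read from this count, and without it 2 of 7 were higher and 2 lower, with a median of 0.08. By limma 0 of the 14977 genes, which is 0%, had an adjusted p under 0.05 after knockdown, and 1225 had an unadjusted p under 0.05. About 749 would be expected if no gene changed, and after overexpression 2061 had one. These counts were not tested, so nothing is read from them.

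Set side by side, the changes after overexpression and knockdown were opposite in every pair for EGR3 and IER5. Both were higher after the former and lower after the latter, as were 12.5% of tested genes. ARC had the same signs, but was chosen for its fall after knockdown, so it is not set against that share. EGR1 and IER2 were higher than their control in all 4 pairs, as were 4.86% of tested genes. The difference between the changes was 0.70 for IER5 (SE 0.14, adjusted p = 0.35, limma) and 0.51 for IER2 (SE 0.14, adjusted p = 0.35, limma). It was 0.51 for EGR3 (SE 0.24), 0.48 for NR4A1 (SE 0.25), 0.47 for IER3 (SE 0.19), 0.07 for EGR1 (SE 0.14) and -0.02 for EGR2 (SE 0.19). None of these 7 passed, where 0.02% of tested genes did. For ARC it was 1.70 and was not tested.

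**Figure D4:**
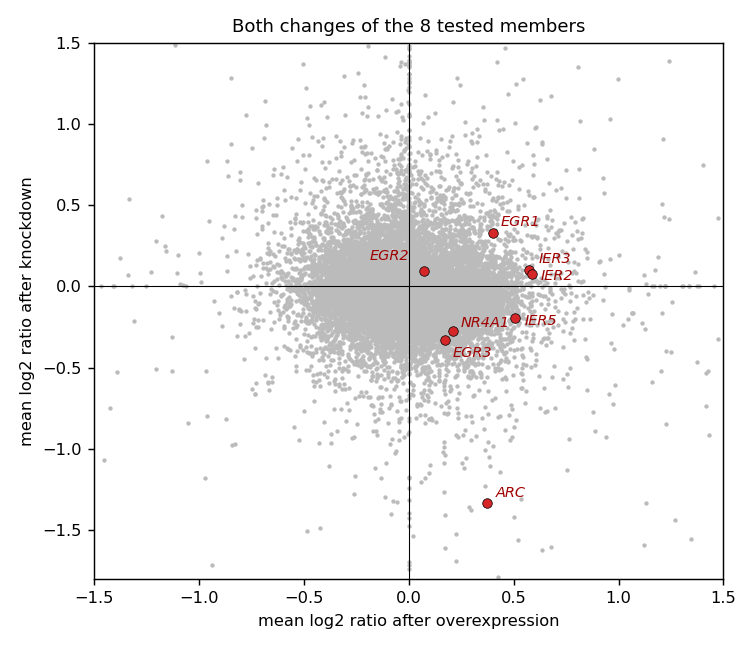
Mean log2 ratio after overexpression (horizontal) and after knockdown (vertical) for 14977 tested genes (grey) and the 8 tested members (red), with 141 genes outside the axes. ARC stands at 0.37 and -1.33, EGR1 at 0.40 and 0.33.

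The controls of the 2 comparisons, PCDNA and ASO-NC, differed in several of these genes. ARC was 2.21-fold and 2.57-fold higher in ASO-NC than in PCDNA. In ASO-PURPL (1.65 and 2.02 FPKM) ARC lay below PCDNA (2.85 and 2.31 FPKM) as well as below ASO-NC. The choice of ARC for its fall favours high ASO-NC and low ASO-PURPL values, so nothing is read from these differences. EGR2 was 1.99-fold and 1.96-fold higher in ASO-NC, at 8.8 and 8.93 FPKM, and NR4A1 was 1.7-fold and 1.4-fold higher. PURPL itself was 2.98-fold and 1.7-fold higher in ASO-NC. In ASO-PURPL it stood at 6.31 and 4.24 FPKM, near its level in PCDNA (5.42 and 5.73 FPKM). In the other direction IER2 was 1.98-fold and 2.37-fold, IER3 1.81-fold and 1.91-fold, and IER5 1.76-fold and 1.64-fold higher in PCDNA. EGR1 (48.3 and 36.7 FPKM against 41.5 and 37.2 FPKM) overlapped. In each case replicate 1 was set across separately deposited tables and replicate 2 within a table, and no test was run. Over all tested genes PCDNA exceeded ASO-NC in both replicates for 35.7% and fell below it for 35.1%. Treatment, control and baseline cannot be told apart between the arms. EGR4, a relative outside the 10 that is named here after its values were seen, had 0.359 and 0.0361 FPKM in PCDNA and 1.78 and 2.25 FPKM in ASO-NC. It stood at 1.04 and 0.974 FPKM in ASO-PURPL, lower in both pairs, as were 33.4% of tested genes. EGR4 passed the filter on low values only through the ASO libraries and was picked after the fact, so no test is given.

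The rest of the early response and its regulators were described by lists. Of all tested genes 32.6% were higher and 31.1% lower in both overexpression pairs, and 19.3% and 33.4% in both knockdown pairs. Every list count below is to be set beside these shares. The length and GC trend was not removed for any list, and how far it enters their medians and counts was not tested. The list of AP-1 subunits and ATF3, 8 genes in all, had a median of 0.40 after overexpression. In both pairs 7 were higher and 0 lower, against 32.6% and 31.1% of tested genes. FOSB had the largest ratios (0.60 and 1.11), followed by JUNB (0.80 and 0.64) and FOS (0.58 and 0.57). After knockdown FOSB had -0.27 and -0.63, FOS -0.002 and -0.47, and ATF3 0.25 and 0.23. Among 31 other immediate early genes the median was 0.12, with 19 higher and 3 lower. By size these were led by SIK1, a salt-inducible kinase (0.73, 11.4 and 15.7 FPKM against 7.85 and 7.55), PPP1R15A, which directs dephosphorylation of eIF2-alpha (0.63, 375 and 389 FPKM against 243 and 251), and ZFP36, an RNA-decay factor that binds AU-rich elements (0.60, 58.7 and 52 FPKM against 43.1 and 30.4). After knockdown the medians of these lists were -0.01 and 0.01, with 2 higher and 3 lower in the former and 8 higher and 11 lower in the latter. NFKBIA, the inhibitor of NF-kB, had ratios of 1.12 and 0.12 there, PLK2 of -0.53 and 0.00 and TRIB1 of -0.21 and -0.32.

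The 27 tested upstream kinases and factors had a median of 0.01 after overexpression (11 higher, 11 lower) and of -0.09 after knockdown (4 higher, 10 lower). MAPK3, which encodes ERK1, had overexpression ratios of 0.41 and 0.43. MRTFB, a coactivator of SRF, stood at 8.8 and 8.94 FPKM after knockdown against 4.61 and 3.4 FPKM, with no overlap, and in OE-PURPL it was at 4.41 and 2.72 FPKM against 5.84 and 4.68 FPKM. Its estimates were 0.99 (SE 0.16, adjusted p = 0.455, limma) and -0.47 (SE 0.16, adjusted p = 0.338, limma). MEF2C had overexpression ratios of -0.48 and -0.75, and ATF1 (0.87 and 0.19) and ELK4 (0.17 and 0.68) had knockdown ratios that differed between pairs.

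Of 7 tested EGR corepressors and known EGR1 targets 1 was higher and 5 were lower in both overexpression pairs (median -0.15). The shares of all tested genes were 32.6% and 31.1%, and EGR1 was higher in both pairs. THBS1, which encodes thrombospondin, a matrix glycoprotein, was at 440 and 393 FPKM against 617 and 601 FPKM (estimate -0.55, SE 0.10, adjusted p = 0.324, limma). NAB1, a corepressor of EGR1, had -0.31 and -0.48 after overexpression and 0.43 and 0.26 after knockdown, where EGR1 was higher both times. NAB2, the other corepressor, had 0.22 and 0.26 after overexpression and -0.22 and -0.21 after knockdown, so the signs of both corepressors were opposite in each comparison. TGFB1, which encodes a growth factor of the TGF-beta family, had knockdown ratios of -0.13 and -0.25. This list had 1 higher and 3 lower in both knockdown pairs (median 0.05).

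HSF1 and 5 of its targets, taken as partners of IER5, had a median of 0.18 after overexpression (5 higher, 1 lower) and of -0.17 after knockdown (0 higher, 4 lower). HSPB1 had ratios of 0.51 and 0.07, HSPA1B, which has a near-identical copy and is uncertain, 0.44 and 0.08, and HSPH1 -0.24 and -0.26 after overexpression. After knockdown HSPH1 had -0.24 and -0.21, DNAJB1 -0.27 and -0.14 and HSPA1B -0.26 and -0.44. Of the NR4A partners RXRA and RXRB, the latter had 0.07 and 0.09 after overexpression, and after knockdown RXRA had -0.18 and -0.22 and RXRB -0.03 and -0.13. The endocytic partners of ARC were higher in both overexpression pairs (SH3GL1 0.32 and 0.20, DNM2 0.12 and 0.27), and after knockdown SH3GL1 had -0.05 and -0.05 and DNM2 -0.20 and -0.07. In these lists 0 genes passed the test in either comparison by limma, and all were counted against the shares given for all tested genes.

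**Figure D5:**
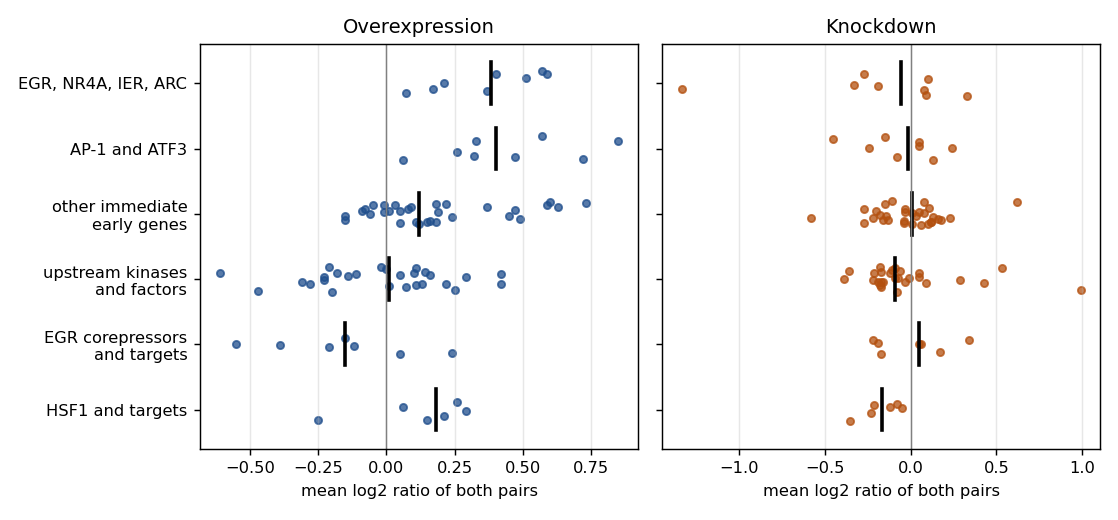
Mean log2 ratio of both pairs for each tested gene (points, spread vertically at random) of 6 lists, after overexpression (left) and knockdown (right), with different horizontal scales. Black bars are list medians, and the length and GC trend is not removed. After overexpression the members and the AP-1 list have medians of 0.39 and 0.40, and after knockdown all list medians lie between -0.17 and 0.05, with ARC the lowest point.

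The genes whose 4 ratios lay nearest to those of a member were sought among 9447 other tested genes whose mean was 5 FPKM or more. Nearest to IER2 were CYBA, MZT2B, RP11-422P24.14, GADD45B and RPS2P5, at distances of 0.10 to 0.14 on the log2 scale. Nearest to EGR1 were NEAT1, ZNF276, MSC, TNFSF13B and PSMB10 (0.18 to 0.21). For ARC the nearest were CH17-408M7.2 and PPIP5K1, both at 0.66, then AP006621.5, MT1M and RP11-666O2.7 (0.90 to 0.93). ARC was chosen for its large fall, which enters the distance, so nothing is read from its larger distances. Its own group means were 1.83 to 6.12 FPKM, so many genes of its level were outside the search. With 4 ratios per gene many genes lie close to a member of small change, and RPS2P5 is a pseudogene whose values are uncertain.

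The members are mostly genes of few exons. Their longest transcripts in GENCODE 29 have a median of 2 exons against 7 for tested genes, and 8 of the 10 have at most 3 exons, as do 3066 of the 13339 tested genes with an annotation. IER2, IER3 and IER5 have 1 exon each, while NR4A2 has 8 and NR4A3 has 9. The median transcript length was 3305 bases, close to the 3484 bases of tested genes. On hg38 IER2 lies on chromosome 19 (13150415 to 13154908), IER3 on chromosome 6 (30743199 to 30744554, minus strand), IER5 on chromosome 1 (181088712 to 181092899) and EGR1 on chromosome 5 (138465490 to 138469315). EGR2 lies on chromosome 10 (62811996 to 62919900, minus strand) and NR4A1 on 12 (52022832 to 52059507). NR4A2 lies on chromosome 2 (156324432 to 156342348, minus strand), NR4A3 on 9 (99821855 to 99866891), and EGR3 and ARC on 8. Genes on the opposite strand share exon bases with IER2, IER3, EGR3 and NR4A1, and the sources used here do not say whether strand was used. Among these IER3-AS1 stood at 0.355 to 6 FPKM, far below IER3.

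The libraries followed their labels. PURPL stood at 153 and 238 FPKM in OE-PURPL against 5.42 and 5.73 FPKM in PCDNA (adjusted p = 0.00511, limma) and at 6.31 and 4.24 FPKM in ASO-PURPL against 16.2 and 9.74 FPKM in ASO-NC (adjusted p = 0.374, limma). All 9 fibroblast markers reached 1 FPKM, with sums of 3670 to 5690 FPKM over the libraries. Of the immune markers PTPRC, CD3E and LYZ stayed under 1 FPKM, and CD68, which fibroblasts also express, made most of a sum of 287 to 356 FPKM in the overexpression arm and 61.1 to 86.8 FPKM in the knockdown arm. CD14 (0.442 to 2.63 FPKM) and CD79A (up to 5.52) also reached 1 FPKM. Of 6 keratinocyte markers KRT10 (7.44 to 35.3 FPKM) and KRT14 (up to 2.2) reached 1 FPKM, while KRT5 and KRT1 were at most at 0.01. Of 4 endothelial markers PECAM1 did (up to 1.48 FPKM) and of 4 melanocyte markers PMEL did (up to 3.51), with CDH5 at most at 0.0424 and DCT at most at 0.0384. Between 13442 and 14598 genes per library reached 1 FPKM.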

How the data were processed

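The deposited values were read as FPKM. Per the submitters' processing notes STAR and Cufflinks (no versions given) and the build hg38 were used, and no column states the unit. The authors deposited 3 tables: for replicate 1 a table per comparison, with values of at least 0.01 FPKM and a log2 fold change by the authors that lies within 0.00148 of log2 of the ratio of FPKM + 1, and for replicate 2 a joint table. The series' design text names a mouse line that no label holds, and was not used. For a repeated name the row of highest mean in each table was kept. The other 1264 rows were dropped, and 1 gene was dropped for a non-numeric cell.

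Because tables may be normalized separately, each treated library was compared with its same-numbered control from the same table. Log2 ratios with a pseudocount of 1 were fitted for 14977 genes that averaged 1 FPKM or more in either arm (limma 3.58.1, R 4.3.3, trend on mean level, 2 residual and 3.34 prior degrees of freedom, Benjamini-Hochberg). The pairing follows the tables. Deviations of same-numbered libraries correlated across genes with r = 0.14 (overexpression) and 0.49 (knockdown). The fit was tested on simulated data. Names were matched to GENCODE 29, of the same assembly, for 37746 genes. Sequences are from RefSeq. The members, gene lists and tests were chosen with earlier results of these data known. From each list of related genes the 3 of largest change are named, among those with the same sign in both pairs and a mean of 1 FPKM or more over the 8 libraries; an item of these lists is not reported here. Read depth is unknown, so no counting interval could be given.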

Additional observations from a re-analysis of the deposited data

Results flagged for a closer look

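ARC, IER5 and EGR3 are set apart because their changes had opposite signs in the comparisons. They were higher in both overexpression pairs and lower in both knockdown pairs, as 12.5% of tested genes were. For ARC the fall after knockdown was the reason it was chosen, so that share is not set against it. Overexpression minus knockdown was 1.70 on the log2 scale for ARC, which was not tested because ARC was chosen for its knockdown change. It was 0.70 for IER5 (adjusted p = 0.35, limma) and 0.51 for EGR3 (adjusted p = 0.426, limma), neither past the threshold.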

How the results depend on the processing

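Of 322 values recomputed under other settings for 24 results of the 8 tested members, 297 had a test. Of these 288 had the same direction and call, 9 changed sign and 0 passed. The other 25, of ARC after knockdown and of its difference, had no test, kept their sign, and 5 moved by more than the spread between pairs. All overexpression estimates stayed above 0. For IER5 they ran from 0.42 to 0.57, with adjusted p from 0.226 to 1. The sign changes were of small values. EGR1, overexpression minus knockdown, was -0.063 with the length and GC trend removed and -0.070 in the quantile-normalized fit that had no replicate block, and it ran from -0.040 (without OE-PURPL replicate 2) to 0.19 with a pair left out. The same difference for EGR2 was 0.00062 in that fit and ran from -0.15 to 0.11 with a pair left out, being 0.0013 without OE-PURPL replicate 2. Without ASO-PURPL replicate 1 the knockdown estimates were -0.037 for EGR2, -0.14 for IER3 and 0.025 for NR4A1, and without replicate 2 they were 0.22, 0.34 and -0.57. ARC, overexpression minus knockdown, was 2.17 and 0.89 with pseudocounts of 0.1 and 5 FPKM and 1.45 with the trend removed.

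Over all genes, 4 passed after overexpression, 2 with a pseudocount of 5, 1 with the length and GC trend removed, 0 in the arm alone and 0 to 1 with a pair left out. After knockdown 0 passed, 2 with a pseudocount of 0.1 and 9 with no filter on low values. The difference was called for 3 genes, 6 with a pseudocount of 0.1, 10 with no filter and 0 to 0 with a pair left out. The causes were not tested. In the fit that had no replicate block and was quantile-normalized, 5, 0 and 4 genes passed in that order, none of them a tested member, and the effect of each choice alone was not run. A left-out pair leaves 1 ratio in its arm, assumed to vary like the other arm. Unknown depth limits most the genes near or under 1 FPKM, which are NR4A2, NR4A3 and, in the ASO libraries, EGR3. It also limits ARC in ASO-PURPL, which stood at 1.65 and 2.02 FPKM.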
